A study of Mus musculus with 6 samples.

Results

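The 10 genes described here encode feedback inhibitors of growth factor signalling through ERK, and are the phosphatase genes Dusp4, Dusp5, Dusp6 and Dusp7, the Sprouty genes Spry1, Spry2 and Spry4, and the Sprouty-related genes Spred1, Spred2 and Spred3. They were chosen by symbol, matched to the gene identifiers of the count tables, and make up 10 of the 27179 genes counted. All 10 passed the filter on low counts, which 14069 genes passed. Their mRNA was measured by mRNA-seq in 3 mouse embryonic fibroblast lines, with 2 libraries per line. The CPN-/- line lacks the circadian clock proteins CRY1, CRY2, PER1, PER2, NR1D1 and NR1D2, and this loss is shared by all 3 lines. From it, Cry1 or Cry2 was added with a virus, under a viral promoter, to give CPN-/- CRY1 and CPN-/- CRY2, and each of these lines was selected as a single colony. A difference between lines and a difference between colonies therefore cannot be told apart. The 2 libraries of a line came from separate RNA preparations, and p-values measure the spread between such preparations.

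Growth factor receptors switch on Ras and the RAF, MEK and ERK kinases, the mitogen-activated protein kinase (MAPK) cascade, and ERK in turn raises the transcription of genes whose products turn the cascade down. These feedback inhibitors act at different steps. Dual-specificity phosphatases (DUSP) remove phosphate from ERK itself, Sprouty (SPRY) proteins act between the receptors and RAF, and the Sprouty-related SPRED proteins hold back Ras and RAF at the membrane. The level of several of their mRNAs, Dusp6 and the Sprouty genes among them, is widely read as a sign of ERK activity. In these data the mRNA was measured and the activity of the pathway was not.

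The genes lie on 10 different chromosomes, in the mm10 (GRCm38) build. Dusp6 (gene 67603) lies at chr10:99263231-99267489 on the plus strand, Spry1 (24063) at chr3:37639947-37644599 on the plus strand and Spry2 (24064) at chr14:105891947-105896819 on the minus strand. These 3 genes and Spry4 (24066) are the ones that differed from CPN-/- in the tests given further on. Reads were counted per gene over exons, and 2 of the 10 genes share exonic sequence with a gene on the opposite strand, Dusp5 over 547 bases and Spry1 over 710 bases. The strand setting of the counting is not given in the sources used here, so that reads of these pairs may not be separated. A stretch of the Spred1 transcripts is nearly identical to a transcript of Vps35, so that the Spred1 count is uncertain to that extent.

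RefSeq promoter sequences (GRCm38.p6) were present for 8 of the 10 genes. The 250 bases before the start of Dusp6, Spry1 and Spry2 are shown because these genes were higher in one or both CRY lines. The capitals mark a match to the core of the site of ETS factors, which ERK phosphorylates (CGGAAG, here read on the opposite strand as CTTCCG), or a GC box (GGGCGG). The sequences run 5′ to 3′ in the direction of transcription, from chr10:99262981-99263230, chr3:37639697-37639946 and, on the minus strand, chr14:105896820-105897069.
Dusp6: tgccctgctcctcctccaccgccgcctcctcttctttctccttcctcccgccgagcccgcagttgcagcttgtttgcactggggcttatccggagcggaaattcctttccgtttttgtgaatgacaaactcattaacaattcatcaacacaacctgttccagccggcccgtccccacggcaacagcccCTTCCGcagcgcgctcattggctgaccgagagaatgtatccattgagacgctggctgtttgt
Spry1: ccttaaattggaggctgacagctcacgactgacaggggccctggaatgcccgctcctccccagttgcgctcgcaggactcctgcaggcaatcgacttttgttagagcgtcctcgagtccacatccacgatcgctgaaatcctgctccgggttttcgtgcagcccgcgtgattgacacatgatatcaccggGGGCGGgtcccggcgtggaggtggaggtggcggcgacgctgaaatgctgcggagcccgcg
Spry2: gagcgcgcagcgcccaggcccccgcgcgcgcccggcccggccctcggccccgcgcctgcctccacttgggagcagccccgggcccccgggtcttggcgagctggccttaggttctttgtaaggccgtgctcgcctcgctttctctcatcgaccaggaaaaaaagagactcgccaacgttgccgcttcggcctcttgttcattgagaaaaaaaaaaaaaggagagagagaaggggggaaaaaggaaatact
Motifs were searched on both strands in windows of 300 bases, 250 before and 50 after the start. The E-box CACGTG, where the clock factors CLOCK and BMAL1 bind and CRY proteins repress them, was in 0 of the 8 windows and in 7.15% of all 32851 promoters of the table. The AP-1 site TGACTCA (5.2% of all promoters), the CRE TGACGTCA (1.79%) and the ETS site CCGGAAGT (3.89%) were also in 0 of the 8. Shorter letters, chosen after these counts were seen, gave CGGAAG in 3 of the 8 (Dusp6, Spred1 and Spred2) against 16.9% of all promoters, GGGCGG in 6 of the 8 against 35.7%, and TGACG in 2 of the 8 against 20.8%. In the Spred2 window a CGGAAG match and a GGGCGG match overlap. The GC content of the Dusp6, Spry1 and Spry2 windows was 57.3%, 64.3% and 62.7%, where the median of all promoters was 52.7%. Letters of this kind occur widely, and the printed matches describe the sequence only. Sites outside these windows were not searched, so a count of 0 does not show that the genes lack such sites.

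The libraries held between 25957409 and 36106949 counts. Levels are given as CPM, the count per 1000000 counts of a library after TMM scaling. Cry1 had 165 and 190 CPM in CPN-/- CRY1 and 115 to 125 in CPN-/-, and Cry2 had 349 and 351 CPM in CPN-/- CRY2 and 129 to 136 in CPN-/-, so that the CPN-/- libraries also held reads of both genes. Each CRY line had less of the other gene than CPN-/-. Cry1 had 51.0 and 48.3 CPM in CPN-/- CRY2, and Cry2 had 50.7 and 51.7 in CPN-/- CRY1. The 2 CPN-/- libraries stood apart from each other. The SD of the log2 difference between replicates over genes was 0.35 in CPN-/-, 0.13 in CPN-/- CRY1 and 0.14 in CPN-/- CRY2, and in CPN-/- this difference rose with the length of the transcript (Spearman rho 0.71 across 12478 genes, a description, since genes are not independent replicates). Fibroblast markers summed to between 9993 and 16532 CPM, although Thy1 was between 0.0277 and 0.230 CPM. The summed levels were 0.0830 to 0.593 CPM for epithelial markers, with Epcam at 0 in every library, 0.409 to 1.00 for endothelial markers and 1.69 to 2.14 for haematopoietic markers, with Cd3e at 0. Of 5 muscle markers 3 were tested, and in CPN-/- CRY1 1 was called higher, 1 lower. The actin gene Acta2, which fibroblasts also express, was between 1157 and 1426 CPM in CPN-/-, 4099 and 4230 in CPN-/- CRY1, with 1842 and 2055 in CPN-/- CRY2, while Myod1 and Myog had at most 1 count in any library. The desmin gene Des went the other way, with 1.45 and 2.00 CPM in CPN-/-, 0.719 and 0.843 in CPN-/- CRY1, with 0.955 and 1.26 in CPN-/- CRY2. The part of the Acta2 and Des differences in the results given next was not tested.

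Whether adding CRY1 or CRY2 changed the feedback genes was asked first of each line against CPN-/-. In CPN-/- CRY1, Dusp6, Spry1, Spry2 and Spry4 rose, 4 of the 10 genes, and 0 fell. In CPN-/- CRY2, Dusp6, Spry1 and Spry4 rose, 3 of the 10, and 0 fell. A gene was called at an adjusted p under 0.05 by the quasi-likelihood test of edgeR, adjusted after Benjamini and Hochberg over all 14069 genes. In bulk RNA, a change in every cell and a change in the share of cells that express a gene cannot be told apart. Over all genes tested 24.3% were called in CPN-/- CRY1, 11.2% higher and 13.1% lower, and 6.66% in CPN-/- CRY2, 2.58% higher and 4.08% lower. At an unadjusted p under 0.05, 6 of the 10 genes were higher in CPN-/- CRY1, 5 were higher in CPN-/- CRY2, and 0 were lower in either line. The share of all genes at this unadjusted threshold is not given here, so these counts have no background to be read against. DESeq2's Wald test likewise called 4 and 3 genes higher and 0 lower, where it called 27.1% and 9.42% of all genes. The median log2 fold change of the 10 genes was 0.49 in the comparison of CPN-/- CRY1 and 0.41 in that of CPN-/- CRY2, and the median of all genes was -0.01 in both. The 2 comparisons share the CPN-/- libraries, so that a low or high value there enters both. Both CPN-/- CRY1 libraries lay above both CPN-/- libraries for 8 of the 10 genes, as for 32.9% of all genes, and both CPN-/- CRY2 libraries did so for 7 of the 10, as for 28.0% of all genes.

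**Figure D1:**
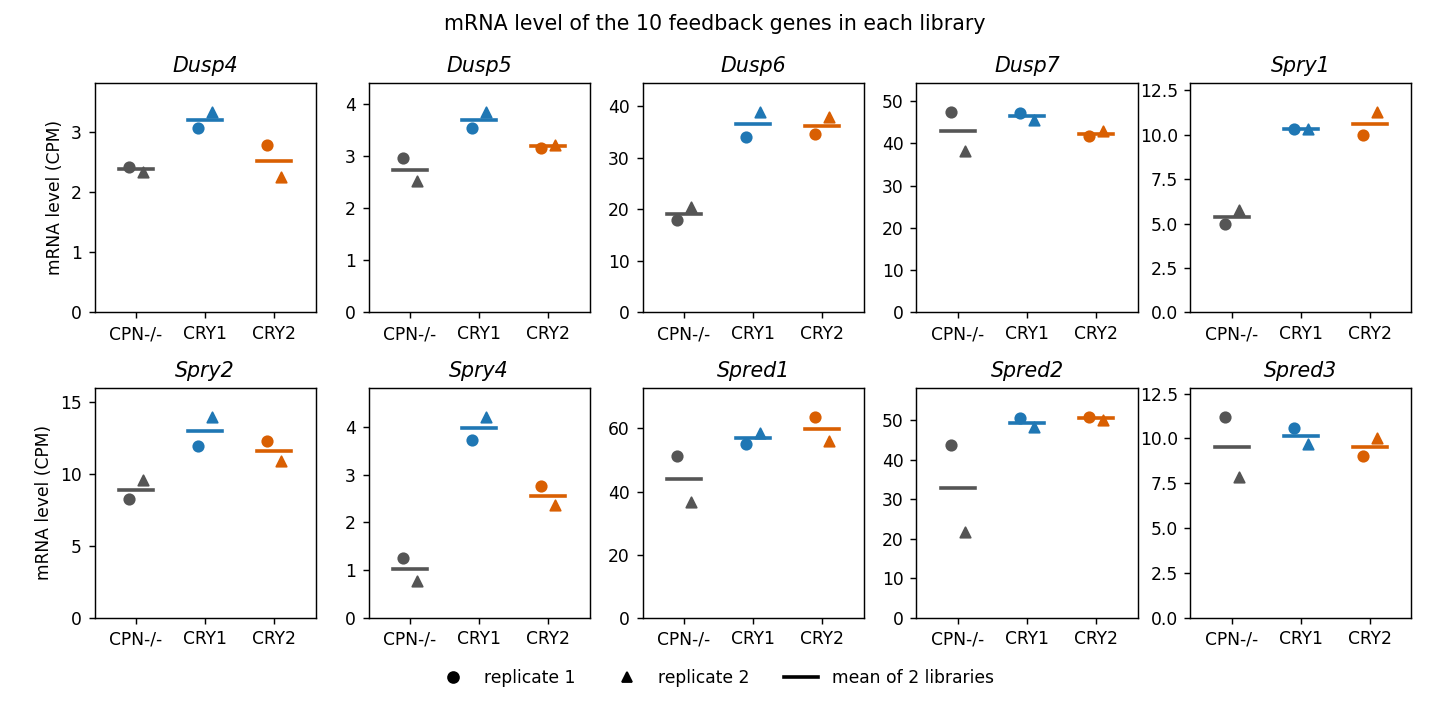
mRNA level in CPM (vertical axes, each from 0) of each of the 10 genes in the 6 libraries, with circles for replicate 1, triangles for replicate 2 and bars for the mean of a line. Dusp6, Spry1 and Spry4 were higher in all 4 CRY libraries than in both CPN-/- libraries, while the CPN-/- libraries of Spred2 lay 2.00-fold apart.

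The Sprouty genes encode adaptors that bind GRB2 and RAF after they are phosphorylated, and they were the group with the most changes. Spry4 had 1.26 and 0.768 CPM in CPN-/-, 3.74 and 4.22 in CPN-/- CRY1, with 2.76 and 2.37 in CPN-/- CRY2, from 40 and 20, 135 and 130, and 75 and 64 counts. The 3 lines did not overlap, and CPN-/- CRY1 was the highest. The level rose 3.85-fold in CPN-/- CRY1 (log2 fold change 1.94 ± 0.25 SE, edgeR adjusted p = 0.003189) and 2.49-fold in CPN-/- CRY2 (1.31 ± 0.26, edgeR adjusted p = 0.0326). The call in CPN-/- CRY2 did not hold in a fit of the 4 libraries compared (edgeR adjusted p = 0.09089) or without CPN-/- CRY1 replicate 1 or 2 (0.08483 and 0.08577).

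Spry1 had 4.97 and 5.76 CPM in CPN-/-, 10.3 in both CPN-/- CRY1 libraries, and 9.96 and 11.3 in CPN-/- CRY2. Both CRY lines lay above CPN-/- and overlapped each other. The rise was 1.92-fold in CPN-/- CRY1 (log2 0.94 ± 0.14 SE, edgeR adjusted p = 0.005147) and 1.99-fold in CPN-/- CRY2 (0.99 ± 0.14, edgeR adjusted p = 0.008834). The genes of chromosome 3, where Spry1 lies, had a median log2 fold change of -0.28 in CPN-/- CRY1 and 0.11 in CPN-/- CRY2, and relative to these medians Spry1 was higher by 1.21 and 0.89.

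Spry2 had 8.27 and 9.59 CPM in CPN-/-, 12.0 and 14.0 in CPN-/- CRY1, with 12.3 and 10.9 in CPN-/- CRY2. All 4 CRY libraries lay above both CPN-/- libraries. The 1.46-fold rise in CPN-/- CRY1 passed the test (log2 0.55 ± 0.14 SE, edgeR adjusted p = 0.03694), and the 1.30-fold difference in CPN-/- CRY2 did not (log2 0.38, 95% interval 0.03 to 0.73, edgeR adjusted p = 0.1781). This call for Spry2 did not hold in a fit of the 4 libraries compared (edgeR adjusted p = 0.08515) or when chromosome medians were removed (0.07191). It also did not hold without CPN-/- CRY2 replicate 1 or 2, from a line outside this comparison, where the log2 fold change stayed at 0.55.

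Among the phosphatases, Dusp6 encodes the cytoplasmic enzyme that binds and dephosphorylates ERK. It had 17.9 and 20.4 CPM in CPN-/-, 34.0 and 38.9 in CPN-/- CRY1, with 34.5 and 37.9 in CPN-/- CRY2, from at least 531 counts in every library. The lowest of the 4 CRY libraries lay well above both CPN-/- libraries, and the 2 CRY lines overlapped. Dusp6 rose 1.91-fold in CPN-/- CRY1 (log2 0.93 ± 0.12 SE, edgeR adjusted p = 0.003856) and 1.89-fold in CPN-/- CRY2 (0.92 ± 0.13, edgeR adjusted p = 0.007746).

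Dusp7, the other cytoplasmic ERK phosphatase of the group, had 47.5 and 38.2 CPM in CPN-/-, 47.3 and 45.5 in CPN-/- CRY1, with 41.7 and 42.9 in CPN-/- CRY2. The values of both CRY lines lay between those of the 2 CPN-/- libraries. The 95% interval of the log2 fold change was -0.18 to 0.41 in CPN-/- CRY1 and -0.31 to 0.28 in CPN-/- CRY2, and neither passed the test (edgeR adjusted p = 0.5053 and 0.9304). A change as large as that of Dusp6 lies outside both intervals.

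The nuclear phosphatases Dusp4, which acts on ERK, JNK and p38, and Dusp5, which acts on ERK, were both low. Dusp4 had 2.42 and 2.34 CPM in CPN-/-, 3.07 and 3.34 in CPN-/- CRY1, with 2.79 and 2.26 in CPN-/- CRY2. It was above CPN-/- in both CPN-/- CRY1 libraries, and the CPN-/- CRY2 libraries lay on either side of CPN-/-. Dusp5 had 2.96 and 2.53 CPM in CPN-/-, 3.54 and 3.86 in CPN-/- CRY1, with 3.16 and 3.22 in CPN-/- CRY2, with no overlap between lines. The log2 fold change in CPN-/- CRY1 was 0.43 for Dusp4 (edgeR adjusted p = 0.1211) and 0.42 for Dusp5 (edgeR adjusted p = 0.09846), and in CPN-/- CRY2 it was 0.08 for Dusp4 and 0.21 for Dusp5 (edgeR adjusted p = 0.7906 and 0.4494). Chromosome 19, where Dusp5 lies, had a median log2 fold change of 0.31 in CPN-/- CRY1 and -0.17 in CPN-/- CRY2, and relative to these Dusp5 differed by 0.11 and 0.36.

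The SPRED proteins bring the Ras inactivator neurofibromin to the membrane. None of their 3 genes was called in either comparison, and 0 were lower or higher by DESeq2's Wald test, while Spred1 in CPN-/- CRY2 had an unadjusted p under 0.05. Spred2 had 43.7 and 21.8 CPM in CPN-/-, 50.6 and 48.2 in CPN-/- CRY1, with 50.9 and 50.2 in CPN-/- CRY2. Spred1 had 51.4 and 36.6, 55.2 and 58.7, and 63.7 and 56.1 CPM in the same order. For both genes the 4 CRY libraries lay above the CPN-/- libraries, and CPN-/- replicate 2 was the lowest library.

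The log2 fold change of Spred2 was 0.59 for CPN-/- CRY1 and 0.62 for CPN-/- CRY2, with standard errors of 0.28 in both (edgeR adjusted p = 0.1619 and 0.2288). That of Spred1 was 0.37 and 0.44 with standard errors of 0.17 (edgeR adjusted p = 0.1446 and 0.1721). These values depended on the CPN-/- library used. Without CPN-/- replicate 1 the difference of Spred2 was 1.18 and 1.21, and without CPN-/- replicate 2 it was 0.18 and 0.22. With one or the other left out, Spred2 was called in both CRY lines, in fits that called between 22.1% and 63.0% of all genes. Spred3, the form found mainly in brain, had 11.2 and 7.83 CPM in CPN-/-, 10.6 and 9.67 in CPN-/- CRY1, with 9.00 and 10.0 in CPN-/- CRY2, all within the range of CPN-/-. Its log2 fold change of 0.09 in CPN-/- CRY1 had a 95% interval of -0.35 to 0.53.

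**Figure D2:**
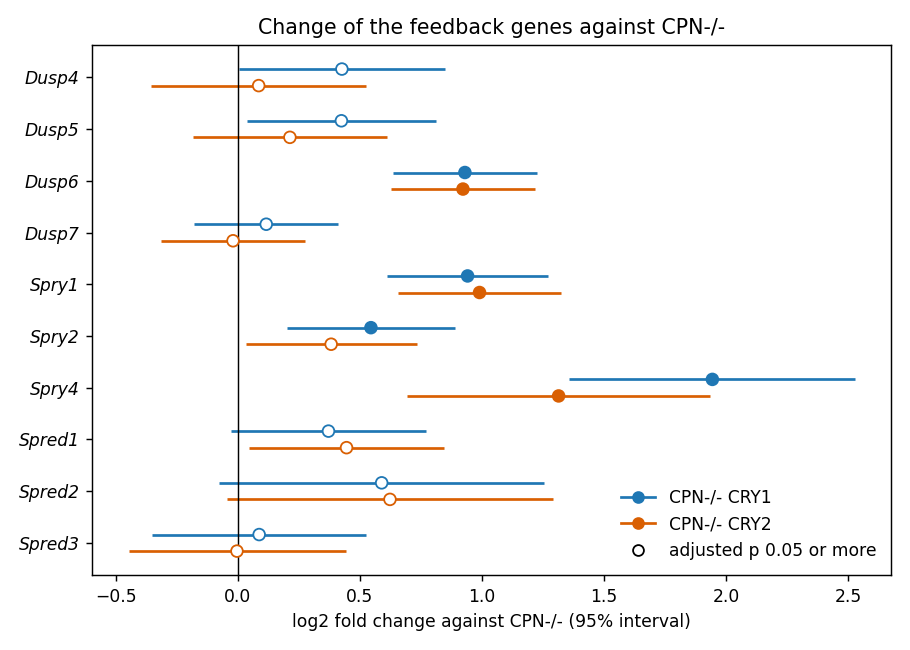
Log2 fold change against CPN-/- (horizontal axis) with its 95% interval for the 10 genes in CPN-/- CRY1 (blue) and CPN-/- CRY2 (orange). Filled points passed an adjusted p under 0.05: Dusp6, Spry1 and Spry4 in both lines and Spry2 in CPN-/- CRY1.

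Most of the calls needed both libraries of the CRY line, while that of Spry4 in CPN-/- CRY1 did not. Without CPN-/- CRY1 replicate 1, 2 of the 10 genes were called in CPN-/- CRY1 (Dusp6 and Spry4) and 4.74% of all genes. Without CPN-/- CRY1 replicate 2, only Spry4 was called, with 4.64% of all genes, and the adjusted p of Dusp6 was 0.05098 and that of Spry1 0.05826. Without CPN-/- CRY2 replicate 1 or 2, edgeR called 0 of the 10 genes in CPN-/- CRY2, and 1.37% or 1.41% of all genes. In these 4 fits the log2 fold changes of Dusp6 and Spry1 stayed between 0.83 and 1.08. Without CPN-/- replicate 1 or 2, the log2 fold changes of Dusp6 and Spry1 in both CRY lines lay between 0.83 and 1.10. Those of Spry4 lay between 1.03 and 2.36.

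**Figure D3:**
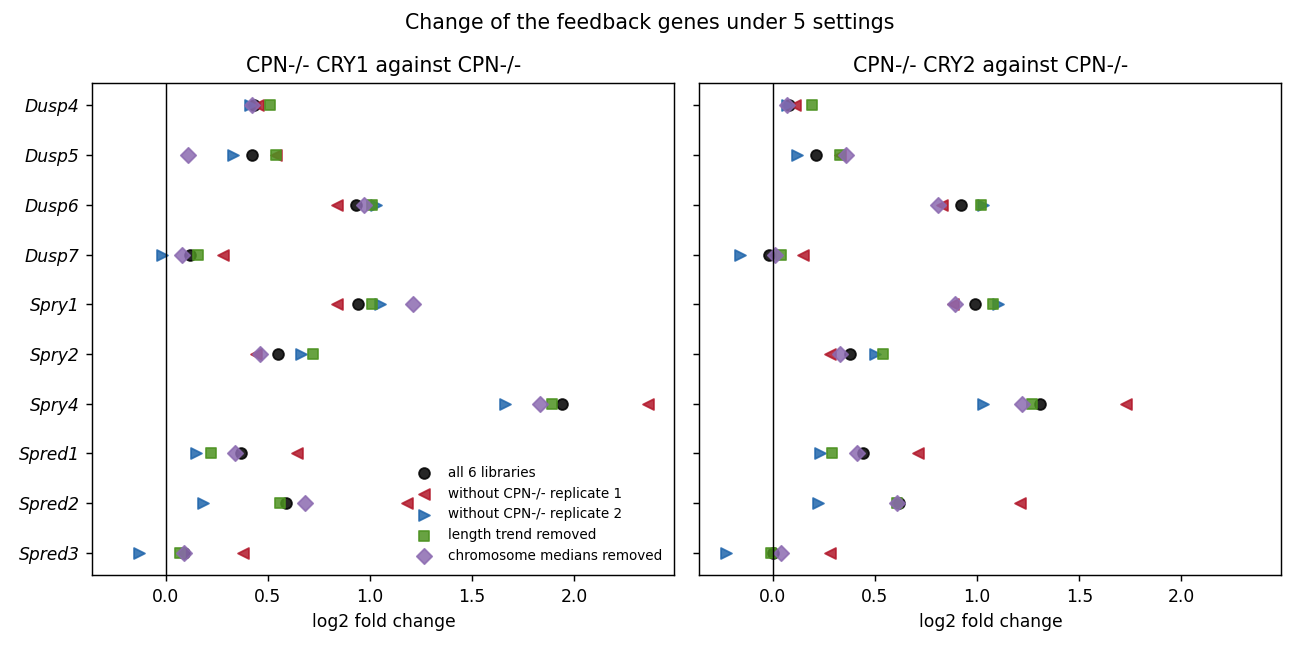
Log2 fold change against CPN-/- (horizontal axes) of the 10 genes with all 6 libraries, without either CPN-/- replicate, and with the length trend or the chromosome medians removed. Dusp6 stayed between 0.81 and 1.03, while Spred2 moved from 0.18 to 1.21 with the CPN-/- library left out.

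Whether the 2 CRY lines differed from each other was tested directly. Of the 10 genes 0 were called between CPN-/- CRY1 and CPN-/- CRY2 by edgeR and 0 by DESeq2's Wald test. Of all genes edgeR called 16.3%, 7.72% higher and 8.57% lower in CPN-/- CRY1, and DESeq2's Wald test called 18.1%. At an unadjusted p under 0.05, 1 gene was higher in CPN-/- CRY1, Spry4, and the share of all genes at that threshold is not given here. Both CPN-/- CRY1 libraries lay above both CPN-/- CRY2 libraries for 4 of the 10 genes, Dusp4, Dusp5, Dusp7 and Spry4, as for 36.4% of all genes. Spry4 was 1.55-fold higher in CPN-/- CRY1 (log2 0.63, 95% interval 0.11 to 1.15, edgeR adjusted p = 0.1015). This difference passed the test when the 4 libraries of these 2 lines were fitted alone (edgeR adjusted p = 0.003281), a fit that called 49.7% of all genes, and when the length trend was removed (0.03857).

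For Dusp6 and Spry1 the difference between the CRY lines was small in size. The log2 difference, CPN-/- CRY1 minus CPN-/- CRY2, was 0.01 for Dusp6 (95% interval -0.28 to 0.30) and -0.05 for Spry1 (-0.37 to 0.27). It was 0.16 for Spry2 (-0.18 to 0.50), which had been called in one line and not in the other, so that its change was not shown to differ between them (edgeR adjusted p = 0.5091). Dusp4 had the largest difference after Spry4, at 0.34 (-0.08 to 0.76). The intervals of Spred1, Spred2 and Spred3 all held 0, and that of Spred2 was the widest, from -0.69 to 0.63.

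The 10 mRNAs also differed from each other in level. Levels were compared between genes per length, as CPM per kb of exon. In CPN-/-, Dusp7 was the highest, at 14.8 and 11.9 CPM per kb. Spred2 (9.82 and 4.90), Dusp6 (6.40 and 7.29) and Spred1 (7.58 and 5.39) followed and overlapped each other. Spry2 (3.96 and 4.60) came next, then Spred3 (2.76 and 1.93) and Spry1 (1.71 and 1.98), which overlapped, and then Dusp5 (1.19 and 1.02), Dusp4 (0.883 and 0.854) and Spry4 (0.264 and 0.161). In CPN-/- CRY1 no neighbours overlapped, and Dusp6 (12.1 and 13.9) stood second to Dusp7 (14.7 and 14.2), with Spred2 at 11.4 and 10.8. In CPN-/- CRY2, Dusp6 (12.3 and 13.6) overlapped Dusp7 (13.0 and 13.3). In both CRY lines Spry1 lay above Spred3, at a mean of 3.53 and 3.66 CPM per kb against 2.50 and 2.35. Spry4 stayed the lowest in every line, with means of 0.213, 0.836 and 0.539 CPM per kb in CPN-/-, CPN-/- CRY1 and CPN-/- CRY2.

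**Figure D4:**
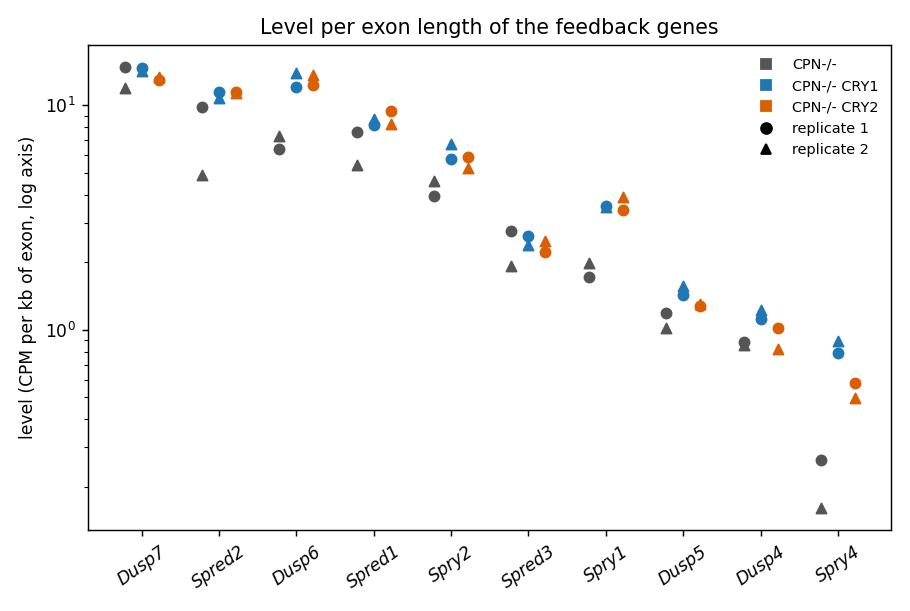
Level per exon length (CPM per kb, log axis) of the 10 genes in each library, ordered by their mean in CPN-/-, with colours for lines and symbols for replicates. Dusp7 and Spred2 lay near the top in every line, and Spry4 lay lowest, between 0.161 and 0.887.

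The rest of the pathway was described from lists of genes chosen by function. The ERK cascade core, from the GRB2 and SOS adaptors to ERK, had 17 genes tested. Of these, 2 were called in CPN-/- CRY1, where the adaptor gene Grb2 fell (log2 fold change -0.40 ± 0.09 SE), a call that did not hold when chromosome medians were removed. Map2k1, which encodes MEK1, fell in CPN-/- CRY2 (-0.44 ± 0.09, edgeR adjusted p = 0.03985) and 16 were not called. The median of the list was 0.07 for CPN-/- CRY1 and 0.02 for CPN-/- CRY2.

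Other MAPK phosphatases gave 2 of 6 higher and 0 lower in CPN-/- CRY1, and 0 higher and 1 lower in CPN-/- CRY2. The inducible phosphatase gene Dusp1 rose by 1.29 ± 0.27 SE on the log2 scale in CPN-/- CRY1 (edgeR adjusted p = 0.01702), with 22.9 and 40.2 CPM in CPN-/-, 66.8 and 87.5 in CPN-/- CRY1, with 44.5 and 55.0 in CPN-/- CRY2. Dusp8, whose product acts on JNK and p38, rose by 0.76 ± 0.10 there. Dusp9 was near 20 CPM in the CPN-/- and CPN-/- CRY1 libraries, between 19.8 and 20.4, and fell to 9.59 and 9.67 CPM in CPN-/- CRY2 (log2 fold change -1.07 ± 0.10, edgeR adjusted p = 0.002138). Dusp9 was thus lower in the CPN-/- CRY2 libraries in which Dusp6 was higher.

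Of 10 other inhibitors of receptor and Ras signalling tested, 2 rose and 2 fell in CPN-/- CRY1, and 1 fell and 0 rose in CPN-/- CRY2. The Ras GTPase-activating protein genes Rasa1 and Rasa2 rose in CPN-/- CRY1 (0.87 ± 0.14 and 0.66 ± 0.15 SE on the log2 scale). Errfi1, an inhibitor of the EGF receptor family, fell (-0.55 ± 0.11). Lrig1, which promotes loss of receptors of that family, fell in both lines, from 135 and 118 CPM in CPN-/- to 52.3 and 55.2 in CPN-/- CRY1, with 69.7 and 66.6 in CPN-/- CRY2 (log2 -1.24 ± 0.11 and -0.89 ± 0.11, edgeR adjusted p = 0.0006932 and 0.004655). Its direction was opposite to that of the Sprouty genes. Spry3, the remaining Sprouty gene, had a count of 0 in all 6 libraries.

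A list of genes tied to transcription downstream of ERK, with the factor genes Srf, Elk1 and Elk3 among them, had calls in both directions. Most of those in CPN-/- CRY1 were higher. In CPN-/- CRY1 6 of 19 rose and 1 fell, with a list median of 0.29, and in CPN-/- CRY2 2 rose and 1 fell, with a median of 0.15. The ETS factor gene Etv5 rose in CPN-/- CRY1 (log2 0.89 ± 0.16 SE), as did the ephrin receptor gene Epha4 (1.10 ± 0.29) from low counts of 41 and 19 in CPN-/-. The early response gene Ier3 fell there (-1.20 ± 0.23). In CPN-/- CRY2 the ETS factor gene Etv1 (1.06 ± 0.23) and the cyclin D1 gene Ccnd1 (0.64 ± 0.12) rose and the AP-1 subunit gene Junb fell (-1.22 ± 0.19, edgeR adjusted p = 0.01181). The immediate early gene Egr1, named after its values were seen, varied within lines, at 16.4 and 38.1 CPM in CPN-/-, 59.6 and 84.4 in CPN-/- CRY1, with 34.3 and 60.6 in CPN-/- CRY2, and was not called.

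At the receptor end, 6 of 10 growth factor receptor genes rose and 2 fell in CPN-/- CRY1, and 1 rose and 1 fell in CPN-/- CRY2. The insulin-like growth factor receptor gene Igf1r (log2 1.01 ± 0.21 SE) and the PDGF receptor gene Pdgfrb (0.88 ± 0.16) rose in CPN-/- CRY1, and Pdgfra fell from 92.7 and 71.9 CPM to 34.6 and 31.8 (-1.31 ± 0.14). Fgfr2 rose in CPN-/- CRY2 (0.83 ± 0.14). The EGF receptor gene Egfr was called lower in both lines, from 84 and 36 counts in CPN-/- to 8 and 10 in CPN-/- CRY1, with 4 and 1 in CPN-/- CRY2.

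Of 8 growth factor genes tested, 2 rose and 2 fell in CPN-/- CRY1, and 2 rose and 1 fell in CPN-/- CRY2. Fgf2, which encodes basic fibroblast growth factor, rose in both lines from 7 and 6 counts in CPN-/- to 33 and 35 in CPN-/- CRY1, with 31 and 17 in CPN-/- CRY2 (log2 2.16 ± 0.42 SE and 1.96 ± 0.44, edgeR adjusted p = 0.01311 and 0.04814). The call of Fgf2 in CPN-/- CRY2 did not hold when counts were scaled by library size only or when chromosome medians were removed. Pdgfa rose (0.63 ± 0.12) and the angiogenic factor gene Vegfa (-1.02 ± 0.09) and Fgf7 (-0.41 ± 0.09) fell in CPN-/- CRY1. Fgf10 rose (1.21 ± 0.15) and Pdgfb fell from 8.52 and 10.7 CPM to 1.87 and 1.89 in CPN-/- CRY2 (-2.35 ± 0.19). As for the feedback genes, most of these calls needed both libraries of the CRY line. Of the genes of these lists named in CPN-/- CRY1, 4 were still called without CPN-/- CRY1 replicate 1 and 3 without replicate 2, and of the 11 named in CPN-/- CRY2, 2 were still called when CPN-/- CRY2 replicate 1 or 2 was left out. In fits of the 4 libraries compared, Grb2, Rasa2, Errfi1, Epha4 and Fgf7 were not called in CPN-/- CRY1, and Map2k1, Etv1, Ccnd1, Fgfr2 and Fgf2 were not called in CPN-/- CRY2. The call of Etv1 also did not hold with at least 10 counts in every library. Without CPN-/- replicate 1, Dusp1 was not called, and without CPN-/- replicate 2, neither Ier3 in CPN-/- CRY1 nor Junb in CPN-/- CRY2 was called.

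**Figure D5:**
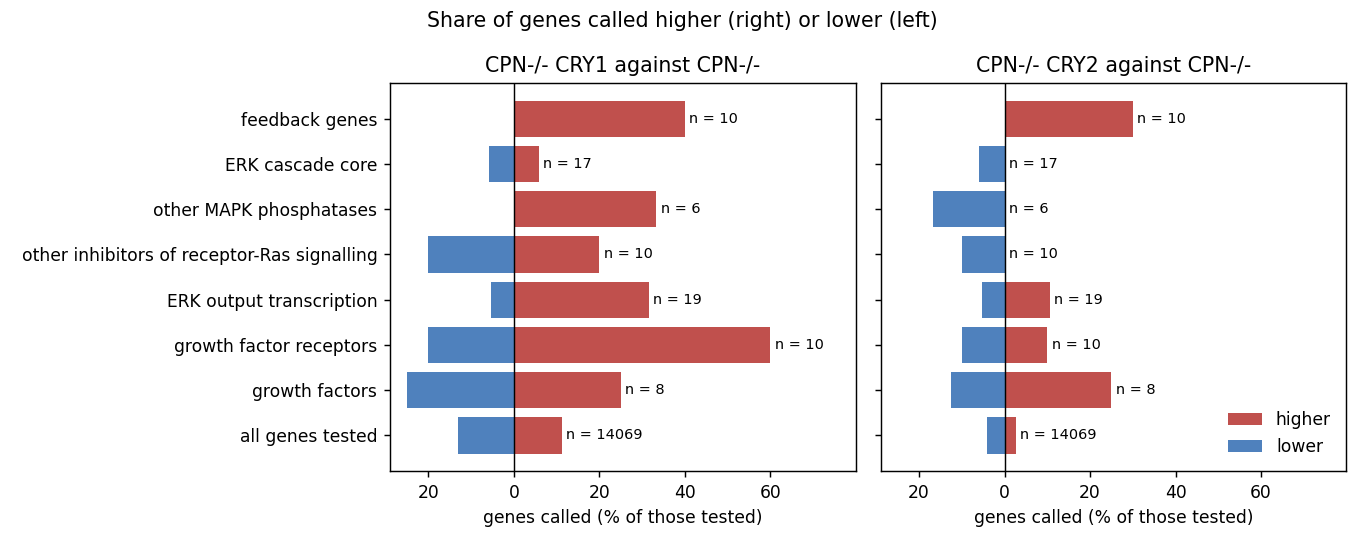
Share of the genes tested in each list that were called higher (bars to the right, in %) or lower (bars to the left) against CPN-/-, with the number of genes tested and, at the bottom, all 14069 genes. The feedback genes were called higher in 40.0% and 30.0% and lower in 0 of 10, while the other lists had genes called lower in at least one line.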

How the data were processed

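mRNA-seq counts from 6 libraries of 3 mouse embryonic fibroblast lines were used. The authors prepared stranded mRNA libraries, mapped paired reads to mm10 with STAR, and made gene counts with featureCounts (processing notes of the submitters). The annotation and strand setting are not given in the sources used here. The deposited values are raw counts for 27179 genes and were used as they are.

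Genes were filtered with filterByExpr (at least 10 counts at the median library size and 15 overall). Of the 14069 genes kept, 726 had no symbol. edgeR 4.0.16 in R 4.3.3 fitted all 6 libraries with TMM factors and the line as the only term, by the robust quasi-likelihood method. Each of the 3 comparisons was two-sided with Benjamini-Hochberg adjustment, at an adjusted p under 0.05. SEs were obtained as |log2 fold change| / sqrt(F). An exact permutation of 2 against 2 libraries cannot give a p below 0.33. The alternatives were DESeq2 1.42.0 with its Wald test, other scalings and filters, a replicate block, 4 libraries only, removal of the length trend (loess span 0.5) or chromosome medians, and each library left out. The steps were tested on simulated data.

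Named are the 10 genes, Cry1, Cry2 and, per list and comparison with CPN-/-, the 2 genes with the largest rise and the 2 with the largest fall among those called. A result that this rule names is not reported here. Members and lists were chosen with earlier results of these data known. Symbols, positions and promoters came from RefSeq and exon lengths from GENCODE. Intervals and tests of counts do not cover more than the spread between these libraries. Protein sequences were not used here.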

Additional observations from a re-analysis of the deposited data

How the results depend on the processing

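For the 10 genes over 3 comparisons, 423 of the values under an alternative kept their direction and their side of the threshold, 18 passed it, 18 no longer passed it and 21 changed sign. Each sign change was in a difference that was not called. The labels do not say whether replicate numbers pair the samples. Correlations between same-numbered libraries were -0.16, 0.28 and -0.13, and with 2 libraries per line these cannot settle it. With the replicate block, 3458 genes were called in CPN-/- CRY1 against CPN-/-, 977 in CPN-/- CRY2 against CPN-/- and 2188 between the CRY lines, and 4, 3 and 0 of the 10. The block changed the sign of Spred3 in CPN-/- CRY2 (0.01) and ended the call of Map2k1 there, and it changed no other call of a gene named. The cause of the changes given next was not tested.

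The number of genes called in CPN-/- CRY1 (3423) was 5588 with the length trend removed, 1798 with 4 libraries, and 663 to 8980 without one library. In CPN-/- CRY2 (937) it was 583 with at least 10 counts in every library, 2433 with the length trend removed, 473 with 4 libraries and 199 to 8046 without one library. Between the CRY lines (2292) it was 4451 with the length trend removed, 1472 with chromosome medians removed, 6838 with 4 libraries and 475 to 6897 without one library. Of the 10 genes, 1 to 9 were called in CPN-/- CRY1 and 0 to 6 in CPN-/- CRY2 without one library, and 5 in CPN-/- CRY2 with the length trend removed (Dusp6, Spry1, Spry2, Spry4 and Spred1). Between the CRY lines Spry4 was called, 1 of 10, with the length trend removed and with 4 libraries. These fits called 31.6% and 49.7% of all genes.

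The sign changed mostly for log2 values near 0, with larger shifts when chromosome medians were removed. In CPN-/- CRY1, Dusp7 was -0.02 without CPN-/- replicate 2 (range without one library -0.02 to 0.28) and Spred3 -0.13 (-0.13 to 0.38). In CPN-/- CRY2, Dusp4 was -0.07 without CRY2 replicate 1 (-0.07 to 0.24), Dusp7 was 0.04 with the length trend removed, 0.01 with chromosome medians removed, 0.15 without CPN-/- replicate 1 and 0.01 without CRY2 replicate 1, and Spred3 was 0.04 with chromosome medians removed, 0.28 without CPN-/- replicate 1 (-0.23 to 0.28) and 0.08 without CRY2 replicate 1. Between the CRY lines, removal of chromosome medians moved Dusp5 from 0.21 to -0.25, Spry1 from -0.05 to 0.33 and Spred2 from -0.03 to 0.06. The median of chromosome 19, where Dusp5 lies, was 0.46 in this comparison, and that of chromosome 3, where Spry1 lies, was -0.40. Dusp6 was -0.01 with upper-quartile factors or the length trend removed, -0.09 without CRY1 replicate 2 and -0.06 without CRY2 replicate 1 (-0.09 to 0.10), Spry1 was 0.04 without CRY2 replicate 2 (-0.14 to 0.04), Spred1 was 0.02 without CRY2 replicate 1 (-0.17 to 0.02), and Spred2 was 0.00 without CRY1 replicate 2. Spry4 had 20 to 135 counts in a library and Dusp4 61 to 111, which limits the precision of their fold changes.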
